A study of Saccharomyces cerevisiae W303 with 30 samples.

Results

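Meiosis and spore formation genes of Saccharomyces cerevisiae were followed in the nascent RNA of growing haploid cells. From 6692 genes counted, 54 genes were picked by systematic name for their known roles. No measured value was in the rule, but these genes were chosen with earlier results of these data known. They are 29 early genes of recombination, chromosome structure and synapsis, 21 middle and late genes of the divisions and the spore, and 4 regulators. A gene was tested where it averaged 5 or more sense-strand counts over the 30 libraries, which left 45 of the 54 (23 early, 19 late and 3 regulators) among 5851 genes tested. The genes not tested were IME4, REC114, MEK1, MEI5, GMC2, MER1, CSM4, SPS2 and CDA2, which averaged 0.533 to 4.90 counts per library.

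Yeast enters meiosis when diploid cells starve. The transcription factor Ime1 and the kinase Ime2 start the early genes, many of which carry a URS1 element where Ume6 holds them silent in growing cells. The transcription factor Ndt80 then switches on the middle genes through the middle sporulation element (MSE), which Sum1 blocks during growth, and the late genes build the spore wall. In haploid cells in rich medium most of these genes are kept at low levels, so what is measured here is largely their residual transcription. NDJ1 is an exception, with values given below.

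Newly synthesized RNA (nsRNA) was labeled with 4-thiouracil for 6 min, pulled down and sequenced, to learn how removal of Mediator subunits changes transcription. Mediator links transcription factors to RNA polymerase II. Med15 and Med16 belong to its tail, and Mot1 is an ATPase that removes TATA-binding protein from DNA. All strains were MATa haploids of the W303 background with its ade2, can1, his3, leu2, trp1 and ura3 mutations, grown in rich medium (YPD). The med16-deletion cells have MED16 replaced by LEU2 and also carry lys2, and were compared with untreated WT cells of the same background. In Med16-AID, Med15-AID, Med15/16-AID and Mot1/Med16-AID cells the named proteins carry an auxin-inducible degron, and all 4 strains express OsTIR1 from the GPD1 promoter at leu2, with LEU2 as its marker. Cells of each strain received 0.5 mM of the auxin 3-IAA for 30 min, or its vehicle DMSO. Each of the 10 groups has 3 biological replicates. WT and med16-deletion cells lacked OsTIR1 and received no DMSO, each degron strain is a single strain, and the degron removes protein, not the gene.

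Between 3838508 and 6912702 counts fell on genes in each library (median 4731420), and the libraries come in sets of 12 (med16-deletion, WT and Med16-AID) and 18 (the other strains). Values are given as CPM, counts per 1000000 after trimmed mean of M-values (TMM) scaling, and a change was called where the adjusted p was under 0.05. The MATa markers MFA1, MFA2, STE2 and BAR1 summed to 731 to 1930 CPM per library and the MATalpha markers to 6.04 to 19.8 CPM. MED16 itself averaged 2.99 ± 0.767 CPM in med16-deletion and 212 ± 14.7 CPM in WT libraries (SD, n = 3 each), while the degron acts on protein, which RNA does not check (MOT1 averaged 1194 ± 156 CPM with 3-IAA and 759 ± 48.8 CPM with DMSO in Mot1/Med16-AID). MFA1 was lower in all 5 comparisons, and of the 4 MATa markers 2, 3, 3, 3 and 1 were lower in the comparisons in the order given above (med16-deletion, Med16-AID, Med15-AID, Med15/16-AID, Mot1/Med16-AID). Their part in the results below was not tested. In RNA of whole cultures, fewer cells that transcribe a gene and less RNA per cell cannot be told apart.

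Most of the genes were weakly transcribed. Per kilobase of coding length, the 45 tested genes had a median of 6.01 CPM (interquartile range 3.31 to 10.7), against 83.8 CPM (44.9 to 163) for the 5652 tested genes with an annotated length. Early genes had a median of 6.01 CPM per kilobase and late genes 4.96. Of the 45, 37 averaged under 100 counts per library, and 8 fell below 5 counts in the mean of at least 1 group, so they passed the minimum through their other groups.

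The promoters carried the elements known for each class. In the 300 bases before the start codon, on both strands, the URS1 core GGCGGC stood before 17 of 29 early genes (58.6%) and 2 of 21 late genes (9.52%), against 313 of 6007 promoters of the genome (5.21%). The MSE core CACAAA stood before 17 of 21 late genes (81.0%) and 4 of 29 early genes (13.8%), against 1149 of all promoters (19.1%). A hit of one core could overlap a hit of the other by a single base, and a core is a run of letters, not a measured binding site. Of the 18 URS1 cores before early genes, 17 began 80 to 200 bases before the start codon (median 117), and of the 18 MSE cores before late genes 13 did (median 119.5). The stretches below show the core, in capitals, with 20 bases on each side for the early genes with a URS1 core that changed in at least 1 comparison, read 5′ to 3′ on the gene's strand in the R64 assembly of RefSeq, where GCCGCC is the core on the other strand.
NDJ1: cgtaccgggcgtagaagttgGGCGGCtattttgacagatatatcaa
PCH2: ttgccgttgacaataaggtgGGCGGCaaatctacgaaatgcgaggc
REC8: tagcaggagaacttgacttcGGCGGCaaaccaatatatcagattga
HOP1: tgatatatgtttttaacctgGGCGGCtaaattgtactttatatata
MEI4: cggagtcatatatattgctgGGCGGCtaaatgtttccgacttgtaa
SPO16: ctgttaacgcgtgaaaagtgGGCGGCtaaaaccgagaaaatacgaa
DMC1: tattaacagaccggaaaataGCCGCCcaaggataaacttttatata
They lie at chrXV:117517-117562 (minus strand) for NDJ1, chrII:600438-600483 (plus strand) for PCH2, chrXVI:571537-571582 (minus strand) for REC8, chrIX:226411-226456 (plus strand) for HOP1, chrV:239845-239890 (minus strand) for MEI4, chrVIII:402745-402790 (minus strand) for SPO16 and chrV:548263-548308 (plus strand) for DMC1. The next stretches show the MSE core in the same way for 4 of the late genes that changed with separate groups, those of the spore wall with the most counts or the largest change, with TTTGTG as the core on the other strand.
SPS4: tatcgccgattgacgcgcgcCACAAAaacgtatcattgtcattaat
CRR1: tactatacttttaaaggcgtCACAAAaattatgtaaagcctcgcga
SGA1: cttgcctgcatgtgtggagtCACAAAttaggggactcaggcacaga
CDA1: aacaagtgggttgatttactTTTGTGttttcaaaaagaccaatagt
They lie at chrXV:903039-903084 (minus strand) for SPS4, chrXII:568044-568089 (minus strand) for CRR1, chrIX:177791-177836 (plus strand) for SGA1 and chrXII:745486-745531 (plus strand) for CDA1. SPS22, SPS1, SSP2 and MPC54 changed and had an MSE core that is not printed. ECM11, HFM1, MSH4, REC102, IME2 and DIT1 changed too and had neither core in their 300 bases, and MAM1, an early gene, had MSE cores alone.

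**Figure D1:**
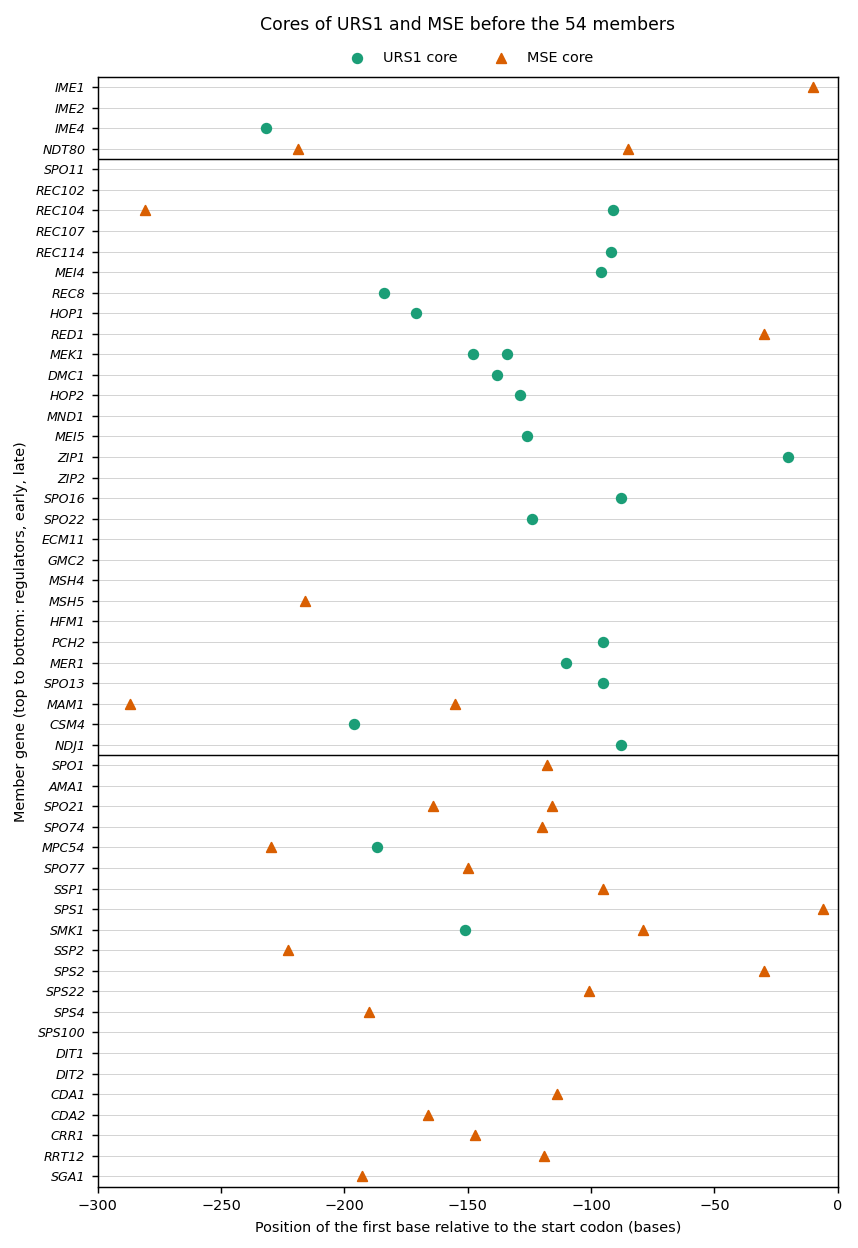
Position of each URS1 core (green circles) and MSE core (orange triangles) before the 54 genes, one row per gene with regulators, early and late genes from top to bottom, and the distance of the first base of the core from the start codon in bases on the horizontal axis. URS1 cores stand before 17 of the 29 early genes and MSE cores before 17 of the 21 late genes.

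Few of the genes changed in any 1 comparison, and most of those that did were higher. In med16-deletion cells 7 of the 45 genes were higher and 1 was lower than in WT, where 7.21% of all genes tested were higher and 9.78% lower. In Med16-AID cells 1 was higher and 1 lower with 3-IAA than with DMSO (3.67% and 7.23% of all genes). In Med15-AID cells 4 were higher and 1 lower (4.07% and 9.52%), and in Med15/16-AID cells 5 were higher and 1 lower (3.81% and 8.02%). In Mot1/Med16-AID cells, where far more of the genome moved, 12 were higher and 2 lower (22.0% and 22.4%). The shares of the 45 genes called higher were therefore above the share of all genes in 4 of the comparisons and below it in Med16-AID. Of the 45, 37 averaged under 100 counts. Among all 790 tested genes at 5 to 100 counts, 8.86, 4.18, 4.18, 7.97 and 16.8% were called higher, in the same order. Over the 5 comparisons, 22 genes were called higher at least once and 2 lower (CRR1 in both directions), and 22 were called in none. NDJ1 was lower in all 5, as were 87 of the 5851 genes (1.49%), and ECM11 was higher in 4, as were 27 genes in at least 4 (0.461%). ECM11 passed the count minimum through only 3 groups, all 3-IAA groups where it was high. Its calls carry that selection, so the share does not measure how unusual it is. The counts of genes called higher above include ECM11 in every comparison but Med16-AID.

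The medians were also slightly above those of all genes. The median log2 fold change of the 45 genes was 0.11 in med16-deletion, 0.15 in Med16-AID, 0.26 in Med15-AID, 0.22 in Med15/16-AID and 0.21 in Mot1/Med16-AID, where all genes tested lay between -0.01 and 0.01. In the same order, 27, 31, 37, 39 and 28 of the 45 values were positive. Weakly transcribed genes in general shared this in med16-deletion and Med16-AID, and part of it in the other comparisons. The 790 genes with a mean of 5 to 100 counts had medians of 0.15, 0.16, 0.15, 0.19 and 0.16, against 0.13, 0.17, 0.36, 0.29 and 0.28 for the 37 of the 45 genes at those counts. Of the low-count genes 61.8, 64.8, 66.1, 68.9 and 63.0% were positive, against 24, 27, 31, 34 and 25 of the 37.

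**Figure D2:**
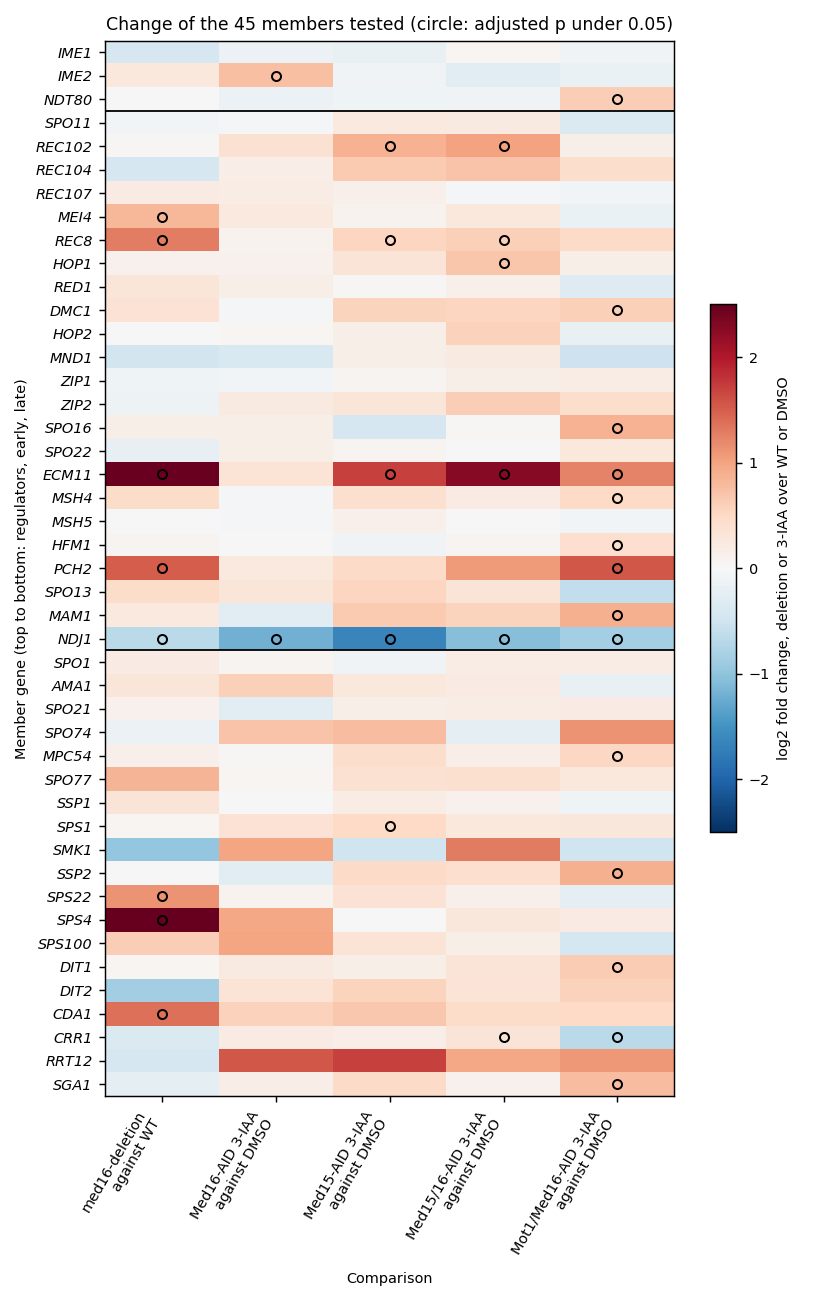
Log2 fold change (color, red higher and blue lower in deletion or 3-IAA libraries than in WT or DMSO libraries) of the 45 genes tested, in rows from regulators to early and late genes, in each of the 5 comparisons in columns. Circles mark an adjusted p under 0.05; NDJ1 carries 5 circles on blue and ECM11 has 4 on red.

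Of the 3 regulators tested, IME2 changed in Med16-AID and NDT80 in Mot1/Med16-AID. IME1, whose product starts the programme, was called in none of the comparisons, with log2 fold changes of -0.43 (med16-deletion), -0.15 (Med16-AID), -0.19 (Med15-AID), 0.05 (Med15/16-AID) and -0.09 (Mot1/Med16-AID). It had 8.37, 6.55 and 6.26 CPM in med16-deletion libraries against 10.2, 9.87 and 8.97 CPM in WT libraries, so that every med16-deletion library was below every WT library, but the adjusted p was 0.26. IME2, the kinase of meiotic entry, had 25.5, 22.4 and 18.2 CPM in Med16-AID 3-IAA libraries against 11.8, 13.2 and 14.4 CPM in DMSO libraries of Med16-AID. The groups did not overlap (log2 fold change 0.75 ± 0.17 (SE), adjusted p = 0.0101), and the call was lost without 3-IAA replicate 1 (adjusted p up to 0.0629), the highest library. In the other comparisons IME2 was not called, at 0.26 (med16-deletion), -0.09 (Med15-AID), -0.27 (Med15/16-AID) and -0.16 (Mot1/Med16-AID). Its Med15/16-AID libraries had 6.11, 8.93 and 8.48 CPM with 3-IAA and 9.71, 8.41 and 9.41 CPM with DMSO, below the Med16-AID values on both sides.

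NDT80, which encodes the transcription factor of the middle genes, was called only in Mot1/Med16-AID. It had 8.55, 6.35 and 9.09 CPM in Mot1/Med16-AID 3-IAA libraries against 5.39, 5.33 and 4.92 CPM in DMSO libraries, with no overlap (log2 fold change 0.61 ± 0.23 (SE), adjusted p = 0.0364). That call was lost without 3-IAA replicates 1 or 3 or DMSO replicates 1, 2 or 3 (adjusted p up to 0.1246). The log2 fold changes of NDT80 were -0.14 in Med16-AID, -0.11 in Med15-AID and -0.08 in Med15/16-AID. IME4, the RNA methyltransferase of meiosis, had 0 to 5 sense counts in every library and was not tested.

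Among the genes for meiotic DNA breaks, REC102 and MEI4 were higher in some strains. REC102, a subunit needed for Spo11 to cut, had 6.30, 4.02 and 5.85 CPM in Med15-AID 3-IAA libraries against 2.95, 3.08 and 2.87 CPM in DMSO libraries of Med15-AID (log2 fold change 0.86 ± 0.25 (SE), adjusted p = 0.0181). In Med15/16-AID it had 5.20, 3.77 and 4.02 CPM in Med15/16-AID 3-IAA libraries against 2.43, 2.05 and 2.15 CPM in DMSO libraries (log2 fold change 1.01 ± 0.27 (SE), adjusted p = 0.011). In both strains every 3-IAA library was above every DMSO library. The Med15-AID call was lost without 3-IAA replicates 1 or 3 or DMSO replicates 1 or 3 (adjusted p up to 0.107), and the Med15/16-AID call was lost without 3-IAA replicate 1 (adjusted p up to 0.104). MEI4, also needed for breaks, had 15.2, 13.4 and 15.7 CPM in med16-deletion libraries against 10.46, 8.003 and 6.44 CPM in WT libraries (log2 fold change 0.83 ± 0.22 (SE), adjusted p = 0.0123). Its groups did not overlap, though the call was lost without WT replicate 3 (adjusted p up to 0.0796). SPO11 itself was called in none, with log2 fold changes between -0.36 (Mot1/Med16-AID) and 0.24 (Med15-AID). In all, 4 of the 5 tested break genes in Med16-AID, 5 in Med15-AID and 4 in Med15/16-AID had positive values, against 3 in med16-deletion and 2 in Mot1/Med16-AID. Of all genes at 5 to 100 counts, 64.8, 66.1, 68.9, 61.8 and 63.0% were positive, in that order.

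The genes of the chromosome axis were positive more often than not, as were all genes at 5 to 100 counts (61.8 to 68.9% by comparison). REC8 (YPR007C, chromosome XVI, 569336 to 571378, R64 coordinates of the coding region), the meiotic cohesin subunit, had 10.6, 13.4 and 11.7 CPM in med16-deletion libraries against 5.48, 4.00 and 5.06 CPM in WT libraries. All 3 med16-deletion libraries lay above all WT libraries, with a fitted fold of 2.42 (log2 fold change 1.28 ± 0.20 (SE), adjusted p = 0.000183), and the call held in every alternative. With Med15 degraded REC8 was also higher, at 10.6, 11.01 and 12.6 CPM in Med15-AID 3-IAA libraries against 8.85, 7.31 and 7.66 CPM in DMSO libraries (log2 fold change 0.53 ± 0.18 (SE), adjusted p = 0.0496), a call lost when any 1 of the 6 libraries was left out (adjusted p up to 0.201). In Med15/16-AID its groups overlapped, at 10.3, 6.35 and 9.15 CPM in Med15/16-AID 3-IAA libraries against 5.08, 5.33 and 6.77 CPM in DMSO libraries (log2 fold change 0.59 ± 0.20 (SE), adjusted p = 0.0483), and the call was lost without 3-IAA replicates 1 or 3 or DMSO replicates 1 or 2 (adjusted p up to 0.295). It was not called in Med16-AID (0.10) or Mot1/Med16-AID (0.48).

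HOP1, which encodes an axis protein next to Red1, was called in Med15/16-AID alone. It had 19.3, 16.7 and 14.3 CPM in Med15/16-AID 3-IAA libraries against 11.9, 9.43 and 10.2 CPM in DMSO libraries, without overlap (log2 fold change 0.70 ± 0.16 (SE), adjusted p = 0.00239), and the call held in every alternative. The other values of HOP1 were 0.11 (med16-deletion), 0.11 (Med16-AID), 0.31 (Med15-AID) and 0.14 (Mot1/Med16-AID). The test of the difference between the Med15/16-AID and Med15-AID responses called none of the 45 genes, HOP1 included, so these values are not shown to differ. RED1 was called in no comparison (-0.32 to 0.31).

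Synapsis and crossover genes held 5 of the 14 calls in Mot1/Med16-AID, all higher, among 9 tested, with a median of 0.44, where 22.0% of all genes were higher. PCH2, the ATPase of the pachytene checkpoint, had 7.70, 9.95 and 9.33 CPM in Mot1/Med16-AID 3-IAA libraries against 3.45, 3.01 and 2.66 CPM in DMSO libraries. Each 3-IAA library was far above the highest DMSO library (log2 fold change 1.56 ± 0.29 (SE), adjusted p = 0.000124). The call held in every alternative, though spike-in factors could not be had for this comparison. In med16-deletion it had 2.79, 3.02 and 2.09 CPM in med16-deletion libraries against 0.498, 1.07 and 1.15 CPM in WT libraries (log2 fold change 1.52 ± 0.44 (SE), adjusted p = 0.0242), which was 8 to 16 counts against 2 to 5 counts per library, and the call was lost without med16-deletion replicates 1 or 2 or WT replicates 1 or 2 (adjusted p up to 0.117). SPO16, which acts early in synapsis, had 11.5, 11.4 and 8.85 CPM in Mot1/Med16-AID 3-IAA libraries against 4.96, 5.79 and 6.76 CPM in DMSO libraries (log2 fold change 0.86 ± 0.19 (SE), adjusted p = 0.00058), with no overlap. HFM1 (the Mer3 helicase of crossovers), the most highly counted of the 54 genes, had 103, 99.0 and 97.1 CPM in Mot1/Med16-AID 3-IAA libraries against 80.04, 70.6 and 72.9 CPM in DMSO libraries. Its 3-IAA libraries were close together and all higher, though by a modest 1.34-fold (log2 fold change 0.42 ± 0.07 (SE), adjusted p = 7.23e-05). MSH4, a MutS homologue of crossovers, was higher by 0.49 (adjusted p = 0.00669), while its partner MSH5 had -0.07 (adjusted p = 0.547). ZIP1, the transverse filament of the synaptonemal complex, was called nowhere, at -0.10 (med16-deletion), -0.07 (Med16-AID), 0.08 (Med15-AID), 0.15 (Med15/16-AID) and 0.19 (Mot1/Med16-AID).

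ECM11 (YDR446W, chromosome IV, 1353725 to 1354633), whose product joins the central element of the synaptonemal complex, was higher in 4 comparisons on very few counts. It averaged 5.90 counts over the 30 libraries and reached a mean of 5 in only 3 groups, the 3-IAA groups of Med15-AID, Med15/16-AID and Mot1/Med16-AID, so it passed the minimum through groups where it was high, and its calls carry that selection. In Med15/16-AID it had 13, 20 and 17 counts with 3-IAA and 3, 3 and 3 with DMSO. Every 3-IAA library was above every DMSO library (log2 fold change 2.29 ± 0.47 (SE), adjusted p = 0.00104), and the ratio of the summed counts, scaled by library size, was 4.99 with an exact 95% interval of 2.43 to 11.5 that covers counting error only. In Med15-AID the counts were 11, 8 and 11 with 3-IAA and 1, 3 and 5 with DMSO (ratio 3.35, 1.55 to 8.02, adjusted p = 0.0313). In Mot1/Med16-AID they were 8, 15 and 10 with 3-IAA and 2, 5 and 7 with DMSO (ratio 2.40, 1.25 to 4.86, adjusted p = 0.0341). The groups did not overlap in either strain, but the Med15-AID call was lost without 3-IAA replicates 1, 2 or 3 or DMSO replicates 1 or 2 (adjusted p up to 0.151) and the Mot1/Med16-AID call was lost without 3-IAA replicates 2 or 3 or DMSO replicates 1 or 2 (adjusted p up to 0.154).

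In med16-deletion ECM11 had 5, 4 and 5 counts against 1, 1 and 0 in WT (ratio 6.26, 1.44 to 56.8, adjusted p = 0.0315), and the call was lost without med16-deletion replicates 2 or 3 or WT replicates 1, 2 or 3 (adjusted p up to 0.146). In Med16-AID it was not called, with 5, 3 and 2 counts with 3-IAA and 1, 3 and 2 with DMSO, overlapping groups and a ratio of 1.28 (0.423 to 4.30). The convergent ribosomal protein gene RPS17B lies 195 bases downstream of ECM11 on the other strand. It was picked for its place, after the values were seen, and had log2 fold changes of 0.07 (med16-deletion), -0.42 (Med16-AID), -0.25 (Med15-AID), -0.08 (Med15/16-AID) and -0.32 (Mot1/Med16-AID), lower in Med16-AID, Med15-AID and Mot1/Med16-AID.

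**Figure D3:**
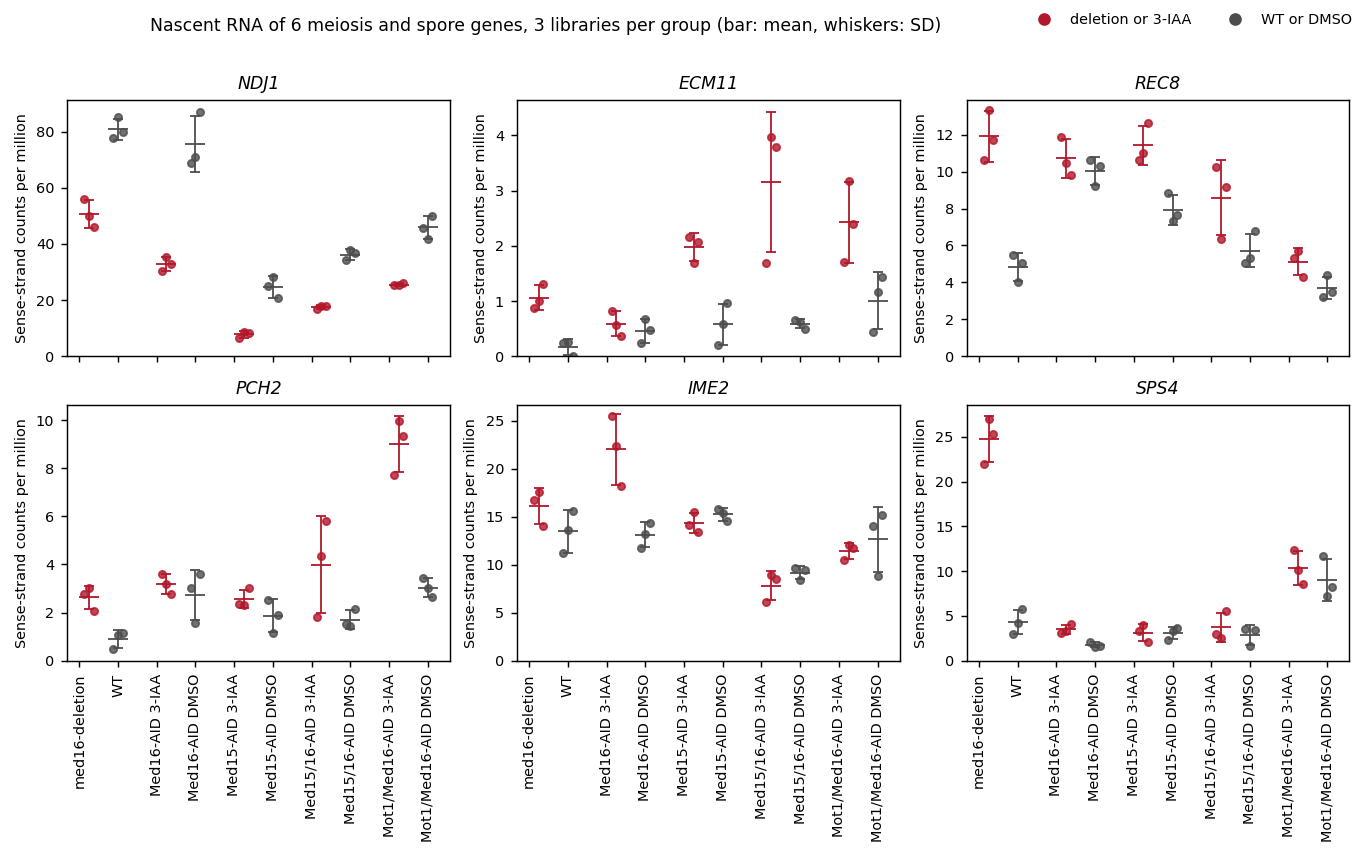
Sense-strand CPM (vertical axes, from 0) in each of the 30 libraries for NDJ1, ECM11, REC8, PCH2, IME2 and SPS4, with deletion or 3-IAA libraries in red left of their WT or DMSO libraries in gray; bars are means and whiskers SDs of 3 libraries. NDJ1 is lower in red than in gray in every pair, while SPS4 stands out in med16-deletion alone, at 22.0, 27.0 and 25.3 CPM.

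NDJ1 (YOL104C, chromosome XV, 116396 to 117454), which encodes a meiotic telomere protein, went the other way. It had 56.1, 49.9 and 46.2 CPM in med16-deletion libraries against 77.9, 85.1 and 79.8 CPM in WT libraries. In Med16-AID it had 30.3, 35.3 and 33.0 CPM in Med16-AID 3-IAA libraries against 68.7, 71.1 and 87.2 CPM in DMSO libraries, and in Med15-AID 6.50, 8.68 and 8.30 CPM in Med15-AID 3-IAA libraries against 25.1, 28.3 and 20.7 CPM in DMSO libraries. In Med15/16-AID it had 16.8, 17.9 and 17.8 CPM in Med15/16-AID 3-IAA libraries against 34.2, 37.7 and 36.8 CPM in DMSO libraries, and in Mot1/Med16-AID 25.2, 25.4 and 26.1 CPM in Mot1/Med16-AID 3-IAA libraries against 45.7, 41.9 and 49.99 CPM in DMSO libraries. In each comparison all 3 deletion or 3-IAA libraries were below all 3 WT or DMSO libraries. The log2 fold changes were -0.67 ± 0.11 (med16-deletion, SE, adjusted p = 0.000304), -1.20 ± 0.11 (Med16-AID, adjusted p = 6.95e-06), -1.66 ± 0.15 (Med15-AID, adjusted p = 1.77e-09), -1.06 ± 0.12 (Med15/16-AID, adjusted p = 8.83e-08) and -0.85 ± 0.11 (Mot1/Med16-AID, adjusted p = 1.24e-06). No single library decided any of them. With the spike-in factors the med16-deletion value of NDJ1 was -0.48 and no longer passed (adjusted p = 0.169). NDJ1 also had the highest level of the 54 genes per kilobase, at 37.6 CPM averaged over the libraries, the lowered ones included. Its coding length is 1059 bases, so its 77.9 to 85.1 CPM in WT were near the median of all tested genes (83.8 CPM per kilobase). In WT it was therefore not a nearly silent gene. Its neighbors were picked for their place after the values were seen. WSC3, 587 bases downstream, was called in no comparison, and YOL103W-B, 545 bases upstream on the other strand, was lower in Med15-AID (-1.44) and Med15/16-AID (-1.20) and not called in the others.

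Of the genes of the first division and of strand exchange, MAM1 and DMC1 were called higher in Mot1/Med16-AID, while the others were not. MAM1, a subunit of the monopolin complex that orients sister kinetochores, had 4.06, 3.17 and 5.02 CPM in Mot1/Med16-AID 3-IAA libraries against 2.59, 1.16 and 2.66 CPM in DMSO libraries (log2 fold change 0.90 ± 0.34 (SE), adjusted p = 0.0343). DMC1, the meiotic recombinase, had 6.63, 6.56 and 5.50 CPM in Mot1/Med16-AID 3-IAA libraries against 5.39, 4.63 and 2.46 CPM in DMSO libraries (log2 fold change 0.60 ± 0.24 (SE), adjusted p = 0.042). In both genes the groups were separate, but the MAM1 call was lost without 3-IAA replicates 1 or 3 or DMSO replicate 2 (adjusted p up to 0.160) and the DMC1 call was lost without 3-IAA replicates 1 or 2 or DMSO replicate 3 (adjusted p up to 0.349). SPO13, of the first division, was at -0.62 in that comparison (adjusted p = 0.212), and MND1 and HOP2, whose products help Dmc1 together, were at -0.51 and -0.19 (adjusted p = 0.456 and 0.693), none of them called. MND1 was also among the lowest values in Med16-AID, at -0.37 (adjusted p = 0.528).

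Of the late genes, those listed under the spore wall held the largest changes. SPS4 (YOR313C, chromosome XV, 901858 to 902874), a gene expressed in sporulating cells, had 22.0, 27.0 and 25.3 CPM in med16-deletion libraries against 2.99, 4.27 and 5.75 CPM in WT libraries. The med16-deletion libraries were all far above WT, with a fitted fold of 5.61 (log2 fold change 2.49 ± 0.21 (SE), adjusted p = 1.45e-07), and the call held in every alternative. In Med16-AID SPS4 had 3.13, 3.36 and 4.08 CPM in Med16-AID 3-IAA libraries against 2.08, 1.57 and 1.68 CPM in DMSO libraries, without overlap but with an adjusted p of 0.066. The med16-deletion and Med16-AID responses of SPS4 differed by 1.51 on the log2 scale (adjusted p = 0.0395). In the other strains it was not called, at 0.01 (Med15-AID), 0.29 (Med15/16-AID) and 0.21 (Mot1/Med16-AID).

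CDA1, a chitin deacetylase, and SPS22, a spore wall protein, were higher in med16-deletion as well. CDA1 had 2.27, 3.53 and 3.65 CPM in med16-deletion libraries against 0.996, 0.800 and 1.61 CPM in WT libraries (log2 fold change 1.38 ± 0.42 (SE), adjusted p = 0.0286), and SPS22 had 3.31, 3.02 and 3.39 CPM in med16-deletion libraries against 1.74, 1.60 and 1.15 CPM in WT libraries (log2 fold change 1.11 ± 0.37 (SE), adjusted p = 0.0444). The groups were separate in both genes, on 12 to 19 counts against 3 to 7 counts per library, and the CDA1 call was lost without med16-deletion replicates 2 or 3 or WT replicates 1 or 2 (adjusted p up to 0.112) and the SPS22 call lost when any 1 of the 6 libraries was left out (adjusted p up to 0.162). All 9 spore wall genes tested had positive values in the 3 degron strains with MOT1 untagged, of which CRR1 alone was called, in Med15/16-AID. Of all genes at 5 to 100 counts, 64.8% (Med16-AID), 66.1% (Med15-AID) and 68.9% (Med15/16-AID) were positive there.

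CRR1, a glycoside hydrolase of the spore wall, changed in opposite directions. It had 50.5, 48.2 and 41.0 CPM in Med15/16-AID 3-IAA libraries against 40.2, 35.1 and 37.8 CPM in DMSO libraries of Med15/16-AID (log2 fold change 0.32 ± 0.09 (SE), adjusted p = 0.0239), a call lost without 3-IAA replicates 1 or 2 or DMSO replicates 2 or 3 (adjusted p up to 0.142). In Mot1/Med16-AID it had 15.8, 13.3 and 16.3 CPM in Mot1/Med16-AID 3-IAA libraries against 23.1, 24.3 and 24.99 CPM in DMSO libraries (log2 fold change -0.68 ± 0.13 (SE), adjusted p = 0.000122). Neither pair of groups overlapped, and the responses differed by -0.99 (adjusted p = 3.97e-05). DIT1, which makes the dityrosine of the outer wall, and SGA1, a glucoamylase of sporulation, were higher in Mot1/Med16-AID. DIT1 had 13.7, 13.5 and 12.2 CPM in Mot1/Med16-AID 3-IAA libraries against 7.77, 7.18 and 10.4 CPM in DMSO libraries (log2 fold change 0.63 ± 0.18 (SE), adjusted p = 0.00669), and SGA1 had 15.2, 18.6 and 19.1 CPM in Mot1/Med16-AID 3-IAA libraries against 8.41, 11.1 and 11.3 CPM in DMSO libraries (log2 fold change 0.78 ± 0.17 (SE), adjusted p = 0.000634). All 3-IAA libraries of both genes were above all DMSO libraries.

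RRT12, a protease of the spore wall, had large values that did not pass. It had 12, 6 and 9 counts with 3-IAA and 1, 5 and 2 with DMSO in Med15-AID (log2 fold change 1.71, adjusted p = 0.062), and 5, 10 and 5 with 3-IAA and 2, 2 and 1 with DMSO in Med16-AID (1.56, adjusted p = 0.0874). The groups were separate in both strains. In the others RRT12 was at -0.42 (med16-deletion), 0.97 (Med15/16-AID) and 1.09 (Mot1/Med16-AID). SPS100 at 0.99 in Med16-AID and DIT2 at -0.86 in med16-deletion, both of the spore wall, were also among the extremes and not called (adjusted p = 0.0874 and 0.378).

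The sporulation kinases and the genes of the prospore membrane gave few calls. SPS1, a kinase of spore formation, had 14.0, 15.2 and 15.9 CPM in Med15-AID 3-IAA libraries against 10.1, 11.5 and 10.3 CPM in DMSO libraries of Med15-AID (log2 fold change 0.49 ± 0.16 (SE), adjusted p = 0.0437). The groups were separate, and the call was lost when any 1 of the 6 libraries was left out (adjusted p up to 0.146). SSP2, which activates the kinase Smk1, had 2.57, 4.23 and 5.02 CPM in Mot1/Med16-AID 3-IAA libraries against 2.37, 1.62 and 2.25 CPM in DMSO libraries (log2 fold change 0.89 ± 0.31 (SE), adjusted p = 0.0212), a call lost without 3-IAA replicates 2 or 3 or DMSO replicate 2 (adjusted p up to 0.121). SMK1 itself had 1 to 15 counts per library and spread widely, at -0.97 (med16-deletion), 0.99 (Med16-AID), -0.50 (Med15-AID), 1.30 (Med15/16-AID, adjusted p = 0.0521) and -0.49 (Mot1/Med16-AID), with no call. MPC54, of the outer plaque of the spindle pole body, was higher in Mot1/Med16-AID with overlapping groups, at 11.8, 14.6 and 8.85 CPM in Mot1/Med16-AID 3-IAA libraries against 6.04, 8.80 and 10.04 CPM in DMSO libraries (log2 fold change 0.51 ± 0.20 (SE), adjusted p = 0.0389), a call lost without 3-IAA replicates 1 or 2 or DMSO replicates 1 or 2 (adjusted p up to 0.266). SPO74, of the same plaque, was at 1.13 in that comparison (adjusted p = 0.0524).

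The 22 tested genes that were called in no comparison were IME1 among the regulators, SPO11, REC104, REC107, RED1, HOP2, MND1, ZIP1, ZIP2, SPO22, MSH5 and SPO13 among the early genes, and SPO1, AMA1, SPO21, SPO74, SPO77, SSP1, SMK1, SPS100, DIT2 and RRT12 among the late genes. Their values ran from -0.97 (SMK1 in med16-deletion) to 1.71 (RRT12 in Med15-AID), while MSH5 and REC107, both among the most highly counted, stayed between -0.07 and 0.20. SPO77, which acts in closing the prospore membrane, was positive in all 5 (0.05 to 0.85), as were 11 of the 45 genes. The share of all genes positive in all 5 is not given here.

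The early and late medians overlapped between libraries in 4 of the 5 comparisons and did not in Med16-AID. In med16-deletion 4 early genes were higher and 1 lower of 23, and 3 late genes were higher of 19, with medians of 0.11 and 0.12. In Med16-AID 1 early gene was lower and no late gene was called, with medians of 0.11 and 0.22. At an unadjusted p under 0.05 there were 6 calls among the 45 genes of Med16-AID. In Med15-AID the medians were 0.24 for early genes (3 higher, 1 lower) and 0.36 for late genes (1 higher), in Med15/16-AID 0.27 (4 higher, 1 lower) and 0.27 (1 higher), and in Mot1/Med16-AID 0.19 (7 higher, 1 lower) and 0.26 (4 higher, 1 lower).

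Library by library, the early median minus the late median averaged -0.04 ± 0.13 (SD, n = 3 med16-deletion libraries, each against the mean of WT), -0.27 ± 0.15 in Med16-AID, -0.10 ± 0.12 in Med15-AID, 0.03 ± 0.05 in Med15/16-AID and 0.04 ± 0.18 in Mot1/Med16-AID. In Med16-AID all 3 libraries had the early median below the late median, with differences of -0.41 to -0.11, and so had all 3 in Med15-AID, with differences of -0.24 to -0.03. The medians of the fitted values differed by -0.11 and -0.12 in these strains, and neither difference was given a test. Early genes with and without a URS1 core had medians of 0.13 and 0.06 in med16-deletion, 0.12 and -0.01 in Med16-AID, 0.23 and 0.24 in Med15-AID, 0.43 and 0.22 in Med15/16-AID and 0.22 and 0.15 in Mot1/Med16-AID (12 and 11 genes).

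**Figure D4:**
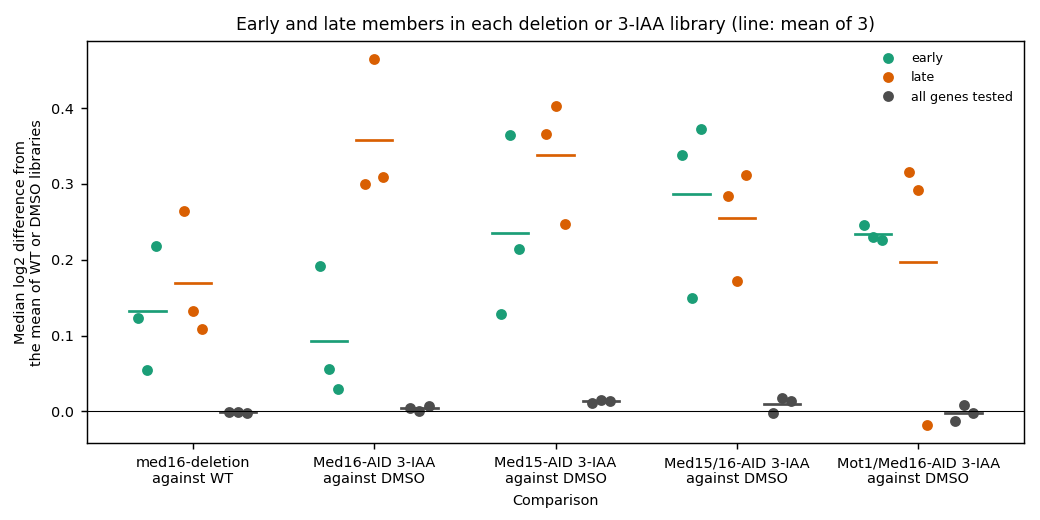
Median log2 difference of the early (green), late (orange) and all tested genes (gray) in each deletion or 3-IAA library from the mean of its WT or DMSO libraries, for the 5 comparisons, with a line at the mean of 3 libraries. Early and late points overlap in every comparison except Med16-AID, where the late points lie at 0.30 to 0.46 and the early ones at 0.03 to 0.19.

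The strains differed in these genes with DMSO alone. With DMSO, Med16-AID cells differed from untreated WT cells in 13 of the 45 genes (9 higher, 4 lower), where 48.0% of all genes did. SPS22 was higher by 2.04, PCH2 by 1.55, CDA1 by 1.47, SPO1, a phospholipase homologue, by 1.1, REC8 by 1.041 and HOP1 by 0.98 on the log2 scale, and RRT12 (-2.22), SPS4 (-1.29), RED1 (-0.73) and HFM1 (-0.24) were lower. REC8 had 10.6, 9.20 and 10.3 CPM in Med16-AID DMSO libraries against 5.48, 4.00 and 5.06 CPM in WT libraries, so the degron strain with DMSO stood well above WT. Strain, OsTIR1, tag and DMSO cannot be told apart in this comparison.

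Med15/16-AID DMSO cells differed from Med15-AID DMSO cells in 13 genes (7 higher, 6 lower), where 41.4% of all genes did. IME1 had 11.9, 10.9 and 11.7 CPM in Med15/16-AID DMSO libraries and 19.6, 18.1 and 18.2 CPM in Med15-AID DMSO libraries, without overlap (log2 fold change -0.69 ± 0.15 (SE), adjusted p = 0.000642). IME2 was lower too (-0.73), as were AMA1, a meiotic activator of the anaphase-promoting complex (-1.08), SPO22, a synapsis gene (-0.89), and MEI4 (-0.88), while SPS22 (1.29), CDA1 (1.05) and SPO21, of the outer plaque (0.96), were higher. Mot1/Med16-AID DMSO cells differed from Med15/16-AID DMSO cells in 17 genes (9 higher, 8 lower), where 49.5% of all genes did. Of the 19 late genes 2 were higher and 7 lower there, with a median of -0.56, and of the 23 early genes 5 were higher and 1 lower, with a median of 0.22. CDA1 had 0.647, 1.62 and 1.64 CPM in Mot1/Med16-AID DMSO libraries and 7.72, 7.18 and 9.41 CPM in Med15/16-AID DMSO libraries (log2 fold change -2.63 ± 0.29 (SE), adjusted p = 9.23e-08), and SPS4 was higher (1.63). Tags and strain history cannot be told apart here.

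The responses themselves differed for few of the genes. Between med16-deletion and Med16-AID, 2 of the 45 differed (6.32% of all genes), SPS4 and REC8, both more positive in med16-deletion, and neither passed with the spike-in factors described below. Between Med15/16-AID and Med15-AID none of the 45 differed (0.393% of all genes), with 2 at an unadjusted p under 0.05 in edgeR and 0 called by DESeq2. Between Mot1/Med16-AID and Med15/16-AID 5 differed (26.7%): SPO16, SGA1 and HFM1 were more positive, and CRR1 and SMK1 less, in Mot1/Med16-AID. Between Med15/16-AID and Med16-AID IME2 differed (5.50%), and between Mot1/Med16-AID and Med16-AID 7 did (28.7%), namely MAM1, PCH2, NDT80 and HFM1, more positive in Mot1/Med16-AID, and IME2, CRR1 and SPS100, less so. The last 2 tests join the 2 sets of libraries, so a set difference that acts on the response cannot be told apart from the strain.

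The scaling decided how many genes were called in the Med15 strains. Spike-in factors from added Schizosaccharomyces pombe cells, which the study used for its own scaling, could be had for 4 comparisons. With them 6 of the 45 genes were higher in med16-deletion (5.37% of all genes), 1 in Med16-AID (2.51%), 20 in Med15-AID (45.5%) and 13 in Med15/16-AID (11.9%). The shift applied to all genes, since the median of all genes moved up by 0.19, 0.21, 0.21 and 0.12 in these comparisons. Of all calls, 42.5, 33.7, 29.9 and 32.2% were higher with TMM, against 62.3, 88.0, 90.2 and 68.5% with the spike-in factors. Measured from the all-gene median, the median of the 45 genes hardly moved, at 0.11, 0.16, 0.25 and 0.21 above it with the spike-in factors and 0.11, 0.14, 0.24 and 0.21 with TMM.

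The opposite strand carried much of the transcription at these loci. Of the 54 genes, 23 had more counts on the opposite than on the sense strand (11 early, 10 late, 2 regulators). Among them were all 9 that were not tested, which were set apart by their few sense counts. Of those with a mean of at least 5 counts on both strands together, 21 of 52 (40.4%) did, against 760 of 6363 genes (11.9%). Over all 54 genes the opposite strand held 46.3% of the summed counts, against 5.69% over all genes counted. Few sense counts alone raise such shares, and genes with sense counts as low were not compared. IME4 had the most, 496 counts per library on average against 1.40 on the sense strand, and RME2, an annotated noncoding RNA, overlaps it. ZIP2 and SPS100 overlap the annotated RME3 and SUT169, and the counting used the strand. SMK1 followed with 204 opposite and 7.40 sense counts, and NDT80 with 195 and 36.3.

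Changes on the opposite strand were few, and their number depended on the scaling. The CPM below are on the scale of the sense strand, while the test was scaled on the opposite-strand counts themselves, so its log2 fold changes differ from those of the CPM. Scaling on the sense strand put the median of all opposite-strand features at 0.15 in Med16-AID, 0.14 in Med15-AID, 0.18 in Med15/16-AID and 0.27 in Mot1/Med16-AID, against 0.00 to 0.03 (-0.01 in Med15/16-AID). In med16-deletion 1 of the 39 genes tested there was called (6.72% of 3689 features), none in Med16-AID (2.98%, edgeR, 5 at an unadjusted p under 0.05) or Med15-AID (3.50%, 6 at that level), 1 in Med15/16-AID (5.75%) and 5 in Mot1/Med16-AID (15.6%). The opposite strand of MEK1, the gene of an axis-bound kinase, had 8.72, 11.1 and 11.2 CPM in med16-deletion libraries against 4.48, 3.47 and 4.83 CPM in WT libraries (log2 fold change 1.29 ± 0.27 (SE), adjusted p = 0.000319). In Mot1/Med16-AID it had 11.5, 11.2 and 11.7 CPM in Mot1/Med16-AID 3-IAA libraries against 4.96, 5.09 and 6.76 CPM in DMSO libraries (log2 fold change 0.79 ± 0.22 (SE), adjusted p = 0.00628). Each med16-deletion or 3-IAA library was above all its WT or DMSO libraries. RED1 had 25.9, 29.4 and 27.5 CPM in Mot1/Med16-AID 3-IAA libraries against 12.3, 13.9 and 12.1 CPM in DMSO libraries on the opposite strand of Mot1/Med16-AID cells (log2 fold change 0.88 ± 0.15 (SE), adjusted p = 6.71e-06), without overlap, and SPO11 was higher too (0.72, adjusted p = 0.0279). The opposite strand of IME4 had 85.7, 107 and 92.6 CPM in Mot1/Med16-AID 3-IAA libraries against 119, 101 and 127 CPM in DMSO libraries (log2 fold change -0.52 ± 0.10 (SE), adjusted p = 6.45e-05), with overlapping ranges, and was also lower in Med15/16-AID (-0.34, adjusted p = 0.0332). HOP2, of strand exchange, fell to 1, 3 and 2 opposite counts with 3-IAA, against 11, 5 and 3 with DMSO (adjusted p = 0.0415). The opposite strand of SMK1 and of NDT80 was called in no comparison. On the sense-strand scale 12 genes were called in Mot1/Med16-AID (20.3% of all features), 11 higher and IME4 lower, 2 in Med15-AID (3.42%), DMC1 and REC114, both higher, 1 in Med15/16-AID (5.58%), DMC1, higher, 1 in med16-deletion (6.61%), MEK1, higher, and none in Med16-AID (1.90%, edgeR, 5 at an unadjusted p under 0.05), while the calls of HOP2 (-1.58, adjusted p = 0.0706) and of IME4 in Med15/16-AID (-0.15, adjusted p = 0.423) were lost. MEK1, RED1 and SPO11 remained higher in Mot1/Med16-AID on that scale, at 1.02, 1.11 and 0.96.

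**Figure D5:**
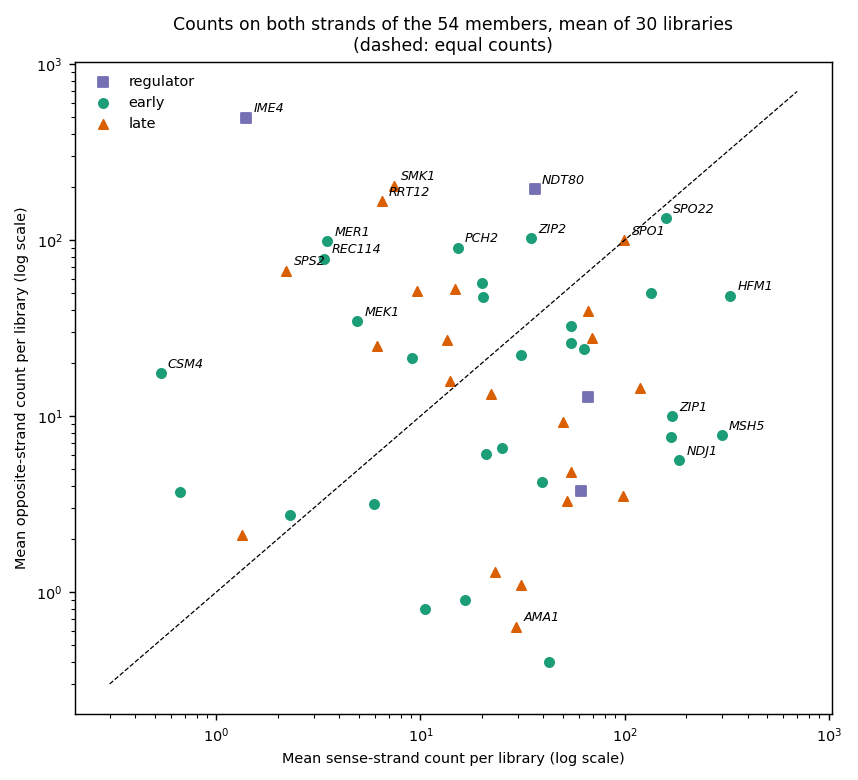
Mean opposite-strand against mean sense-strand count per library (both axes on a log scale) for the 54 genes over 30 libraries, by class, with a dashed line at equal counts. The 23 genes above the line have more counts on the opposite strand, with IME4 the farthest from it at 496 opposite and 1.40 sense counts.

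Genes of the programme outside the 54 were called higher more often than lower. Their list, like the 54, was chosen with earlier results of these data known. Of 31 other meiosis and spore genes, 25 were tested, and 4 were higher in med16-deletion (7.21% of all genes were) and 1 lower (9.78%), with a median of 0.21. In Med16-AID 2 were higher (3.67%, median 0.09), in Med15-AID 3 (4.07%, median 0.32), in Med15/16-AID 6 (3.81%, median 0.31) and in Mot1/Med16-AID 6 (22.0%, median 0.31). SPO20, of prospore membrane fusion, was higher by 1.45 and SPR3, a sporulation septin, by 1.28 in med16-deletion, and SPR28, another septin, by 1.25 in Mot1/Med16-AID. Of 15 genes for repressors and signaling of meiosis none was called in med16-deletion by edgeR (2 at an unadjusted p under 0.05). Those named here were picked after their values were seen. UME6 (0.39) and RIM101 (0.26) were higher in Med16-AID (2 of 15, 3.67% of all genes), and RME1, a repressor of IME1, was lower in Med15-AID and Med15/16-AID (-0.41 each, 1 of 15, where 9.52% and 8.02% of all genes were). In Mot1/Med16-AID 9 of the 15 were lower, where 22.4% of all genes were, and 1 was higher (22.0%), with a median of -0.26. RME1 (-0.41), UME1 (-0.40), UME6 (-0.35), SIN3 (-0.29) and RPD3 (-0.27) were among the lower, the last 4 of which act together as the repressor at URS1. The gene called higher and those not called are not named, and 4 of the 15 values were positive. A link to the genes with a URS1 core was not tested.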

How the data were processed

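Newly synthesized RNA of 30 yeast cultures was labeled with 4tU, purified, and depleted of rRNA with Terminator exonuclease before stranded libraries were made. The authors aligned reads with STAR 2.6.1a to sacCer3, and the deposited counts per gene give unstranded, sense and opposite-strand columns, of which the stranded ones were used here. The 4 summary lines were left out of totals (35.5 to 58.2% of reads multimapping, 13.5 to 24.3% unmapped, 2.45 to 3.69% outside features, 0.144 to 0.262% ambiguous, 23.0 to 40.8% on genes). The rows hold no spike-in genes. The authors' comparison tables hold their DESeq2 fold changes and p-values, none of which is reported here. The spike-in size factors behind 4 of the 5 tables were recovered from the fold changes and standard errors in them, together with the counts. They were used for 1 alternative.

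Genes with a mean of 5 or more counts over the 30 libraries were scaled by TMM and fitted with edgeR 4.0.16 in R 4.3.3 (quasi-likelihood test, prior count 0.125, one fit for the 12 and one for the 18 libraries of the 2 file sets, both together for differences across them). P-values were adjusted by Benjamini-Hochberg over all genes within each contrast, with 0.05 as the threshold. CPM are counts per 1000000 of the TMM-scaled total. Library medians are of log2 CPM, with 0.5 added to each count before scaling. The depth of 3838508 to 6912702 counts makes 3 counts about the floor of a library, and the 54 genes averaged 0.533 to 329 counts. Python 3.11.15, numpy 2.4.6, scipy 1.17.1, pandas 2.3.3, limma 3.58.1 and DESeq2 1.42.0 were also used, and the fit was tested on simulated data. Gene positions came from the R64 assembly of the S288C strain, to which 6008 of 6692 genes and all 54 matched by systematic name. The W303 strains can differ from it in sequence.

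The 54 genes and all lists were chosen with earlier results of these data known. Named were IME1, IME2, IME4, NDT80, ECM11, HOP1, ZIP1 and RRT12, every gene of the 54 with an adjusted p under 0.05, the 2 highest and 2 lowest fold changes per comparison, listed genes of other sets past the threshold with an absolute log2 fold change of at least 1, and on the opposite strand the genes called and the 3 with the most counts. Exceptions are stated where they occur. Alternatives were median-of-ratios and library-total scaling, filterByExpr, no filter, a fit of the compared groups alone, a block for the replicate number, unstranded counts, spike-in factors, DESeq2 and each library left out in turn. Added after seeing the data were opposite-strand counts with sense-strand factors, the same alternatives for the comparisons of DMSO and WT libraries and for differences between responses, and a 500-base promoter window.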

Additional observations from a re-analysis of the deposited data

Results flagged for a closer look

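The test of the difference between 2 responses called 15 values, which are given as log2 differences with their SE. Between med16-deletion and Med16-AID, SPS4 differed by 1.51 ± 0.42 (adjusted p = 0.0395) and the cohesin gene REC8 by 1.18 ± 0.27 (adjusted p = 0.0129), both more positive in med16-deletion. In Med16-AID REC8 started from a DMSO level that was itself higher than WT by 1.041.

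Between Mot1/Med16-AID and Med15/16-AID, SPO16 of synapsis differed by 0.83 ± 0.27 (adjusted p = 0.0261), the glucoamylase gene SGA1 by 0.67 ± 0.24 (adjusted p = 0.0449) and the helicase gene HFM1 by 0.36 ± 0.11 (adjusted p = 0.0161). The spore wall gene CRR1 differed by -0.99 ± 0.16 (adjusted p = 3.97e-05) and the kinase gene SMK1 by -1.78 ± 0.58 (adjusted p = 0.0244). CRR1 was the only one of the 54 genes called in both directions among the 5 comparisons.

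Between Med15/16-AID and Med16-AID, the kinase gene IME2 differed by -1.02 ± 0.25 (adjusted p = 0.0121), and between Mot1/Med16-AID and Med16-AID by -0.91 ± 0.24 (adjusted p = 0.00555). Mot1/Med16-AID against Med16-AID also gave PCH2 at 1.31 ± 0.46 (adjusted p = 0.0317), MAM1 at 1.18 ± 0.45 (adjusted p = 0.0463), NDT80 at 0.75 ± 0.28 (adjusted p = 0.0405), HFM1 at 0.42 ± 0.11 (adjusted p = 0.00492), CRR1 at -0.88 ± 0.19 (adjusted p = 0.00113) and SPS100 at -1.44 ± 0.50 (adjusted p = 0.0303). These tests join the 2 sets of libraries, which cannot be told apart from the strains.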

How the results depend on the processing

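Of the 35 calls in the 5 comparisons, 15 held in every alternative and with each library left out: 2 of 8 in med16-deletion, 1 of 2 in Med16-AID, 1 of 5 in Med15-AID, 3 of 6 in Med15/16-AID and 8 of 14 in Mot1/Med16-AID. The Mot1/Med16-AID calls could not be put to spike-in factors, which were had for the other comparisons only. No call of the 5 comparisons changed sign. Counts of genes called are of the same 45 genes unless stated. Library totals gave 5 in Med16-AID, 21 in Med15-AID and 22 in Med15/16-AID, and spike-in factors gave 21 in Med15-AID, 14 in Med15/16-AID and 0 for the difference of med16-deletion and Med16-AID. Any such factor moves all genes of a library together. TMM takes most genes as unchanged, which by construction puts the median of all genes near 0. The median of all genes shifted by 0.19, 0.12, 0.18, 0.15 and 0.07 with library totals (med16-deletion, Med16-AID, Med15-AID, Med15/16-AID, Mot1/Med16-AID), and 83.1, 81.2, 89.6, 85.9 and 63.8% of all calls were then higher, against 42.5, 33.7, 29.9, 32.2 and 49.5% with TMM. DESeq2 gave 1 in Med15-AID, 3 in Med15/16-AID, 8 in Mot1/Med16-AID, 2 for the difference of Mot1/Med16-AID and Med15/16-AID and 4 for that of Mot1/Med16-AID and Med16-AID. A fit of the compared groups alone gave 9 in Med15-AID. Unstranded counts, with which 52 of the 54 genes were tested, gave 4 in Med16-AID, 22 in Mot1/Med16-AID and 2 for the difference of Med15/16-AID and Med16-AID, and turned the SMK1 difference of Mot1/Med16-AID and Med15/16-AID to 0.022, where SMK1 has far more opposite-strand than sense counts. The early minus late median was -0.15 in med16-deletion with filterByExpr, and with unstranded counts it was 0.10 in med16-deletion, 0.045 in Med15/16-AID and 0.083 in Mot1/Med16-AID, positive in place of -0.0018, -0.0037 and -0.062. With sense-strand factors 16 opposite-strand values were called in place of 7. A 500-base window found URS1 before 18 early genes in place of 17. The causes were not tested.

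With each library left out, the genes called ranged from 4 to 6 in med16-deletion, 1 to 2 in Med16-AID, 1 to 3 in Med15-AID, 5 to 6 in Med15/16-AID and 9 to 12 in Mot1/Med16-AID. For the DMSO comparisons they ranged from 9 to 13 (Med16-AID and WT), 11 to 13 (Med15/16-AID and Med15-AID) and 12 to 17 (Mot1/Med16-AID and Med15/16-AID). For the differences between responses they ranged from 1 to 2 (med16-deletion and Med16-AID), 3 to 5 (Mot1/Med16-AID and Med15/16-AID), 0 to 1 (Med15/16-AID and Med16-AID) and 4 to 7 (Mot1/Med16-AID and Med16-AID), and were 0 in every case for Med15/16-AID and Med15-AID. The early minus late median ranged from -0.19 to 0.088 in med16-deletion, -0.19 to -0.10 in Med16-AID, -0.17 to 0.016 in Med15-AID, -0.067 to 0.10 in Med15/16-AID and -0.09 to 0.10 in Mot1/Med16-AID. Deviations of same-numbered libraries from their group means had correlations of -0.53 to 0.37, and all were positive in Med15-AID (0.03 to 0.18). Libraries of different numbers were not compared in this way, so whether the numbers pair the libraries was not settled. With the replicate number as a block 6, 2, 4, 5 and 14 of the 45 genes were called, against 8, 2, 5, 6 and 14 without it. Of 278 values of named genes that were not called, 23 changed sign under another setting. Depth limits most of these genes: 37 of the 45 averaged under 100 counts.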
